A study of Homo sapiens with 6 samples.

Results

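The CXC chemokines and the chemokine receptor CXCR4 were followed in every RNA of a microarray study of Hic-5, the focal adhesion adaptor protein encoded by TGFB1I1. The members are the ligands CXCL1, CXCL2, CXCL3, CXCL5, CXCL6, CXCL8 (interleukin 8), CXCL12, CXCL14 and CXCL16 and the receptor CXCR4, taken by gene name among the non-control probes. They make up 10 of the 29123 gene names on the array and are read by 15 of its 41000 probes, with 33 spots per array. All 15 probes were used.

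RNA came from SKOV3 and A2780s, established human ovarian cancer cell lines grown as adherent cells. In SKOV3, the clones sh-S1 and sh-S2 carried a stably integrated pLKO.1 lentiviral short hairpin RNA against Hic-5, and their control, here Ctrl, was a clone with the same vector and a scrambled sequence. In A2780s, 1 stable clone that expressed Hic-5 from the pCMV6 vector (pCMV-Hic-5) was set against a clone with the empty vector (Ctrl). All SKOV3 cells had passed puromycin selection and all A2780s cells neomycin selection, and each RNA stands for 1 clone. Each of the 6 arrays was hybridised with a modified clone in one dye and its Ctrl in the other, and every pair of RNAs was run on 2 arrays with the dyes exchanged. Arrays of the same pair of RNAs were counted as 1 replicate, which gave 2 replicates in SKOV3 (4 arrays, the clones sharing 1 Ctrl RNA) and 1 in A2780s (2 arrays). Values are log2 ratios of the modified clone over Ctrl. The p-values measure the spread between the SKOV3 clones only and leave out the spread of the Ctrl.

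The Cy5 channel was dim on the SKOV3 arrays, where the median signal above local background was between 9.52 and 25.4, against 373 to 530.5 in Cy3. On the A2780s arrays it was 325 to 369 in Cy3 and 441 to 568 in Cy5. Ratios also differed between dye orientations in both lines: over the probes tested in SKOV3, which are not independent replicates, the ratios of the 2 orientations correlated with a Pearson's r of 0.61 for sh-S1, 0.606 for sh-S2 and 0.495 for pCMV-Hic-5. Both orientations are given below. The SKOV3 arrays shared a slide and the A2780s arrays another, which leaves the cell line and the slide inseparable (they cannot be told apart).

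The labels were checked first. The probe for TGFB1I1 (A_23_P141055) gave log2 ratios of -0.16 and 0.12 for sh-S1, with the clone in Cy5 and in Cy3, and -0.11 and 0.28 for sh-S2. Its mean was 0.03 (limma, adjusted p = 0.855), so no fall was seen in either RNA labelled sh. The direction of every SKOV3 ratio rests on those labels. In Cy5 the Ctrl spots read 69.1 and 62.9 over local backgrounds of 43 and 46.5. The clone spots in Cy5 read 57.4 and 55.7 over 49 and 42.5, so a fall would be hard to see in that dye. In Cy3 the Ctrl read 758 and 648 and the clones 701 and 508. By the paper, the knockdown clones had been selected on their Hic-5 mRNA and protein. In A2780s the ratios were 4.05 and 2.60, a mean of 10.0-fold more in the RNA labelled pCMV-Hic-5.

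Markers of cell identity moved with the SKOV3 groups as well. Of 5 epithelial markers 4 were tested and all 4 were lower in both RNAs labelled sh (limma, adjusted p at most 0.05 and at least 2-fold). These were KRT18 at -3.53, KRT19 at -2.54, KRT7 at -2.19 and KRT8 at -2.14. By the same rule, 4.16% of all 24955 tested probes were called lower and 2.97% higher. The log2 of the summed level of 4 epithelial markers, to which the brightest gene adds most, was 14.9 to 15.5 in the SKOV3 Ctrl. It was 12.1 to 12.8 in both clones, and 10.71 to 11.11 in both A2780s RNAs. Of 4 ovarian and Müllerian markers 3 were tested and 1 was called, the transcription factor PAX8 at -3.58, while WT1 was at -0.02 (limma, adjusted p = 0.91) and MUC16 at 0.06 (limma, adjusted p = 0.738). COL3A1, a fibrillar collagen of mesenchymal cells, was at 3.65. ERBB2, which is known to be amplified in SKOV3 and was looked up after the values were seen, had a mean log2 level of 13.2 in the SKOV3 Ctrl, 11.1 in sh-S1, 10.74 in sh-S2 and 10.45 in the A2780s Ctrl (limma, clones over Ctrl, -2.28, adjusted p = 1.89e-05). The epithelial sum and the mean ERBB2 level thus lay between the SKOV3 Ctrl and the A2780s RNAs in both clones. Another pair of genes looked up after the values were seen did not lie between them throughout. UQCRH, a subunit of respiratory complex III, had a mean log2 level of 11.3 in the SKOV3 Ctrl, 16.6 in sh-S1, 16.8 in sh-S2 and 15.7 in the A2780s Ctrl (limma, clones over Ctrl, adjusted p = 2.7e-06). CDKN2A, a cell cycle inhibitor, had 10.04 in the SKOV3 Ctrl, 11.3 in sh-S1, 10.9 in sh-S2 and 10.8 in the A2780s Ctrl (limma, adjusted p = 0.00915).

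Levels over all probes were compared for the same reason. Across 24769 tested probes, which are not independent replicates, the mean log2 level of sh-S1 correlated with a Pearson's r of 0.946 with the SKOV3 Ctrl of the same arrays and of 0.940 with the A2780s Ctrl of the other slide. For sh-S2 these values were 0.941 and 0.950. Without normalization between arrays they were 0.932 and 0.916 for sh-S1 and 0.926 and 0.929 for sh-S2. The SKOV3 Ctrl correlated with the A2780s Ctrl with an r of 0.864. TGFB1I1 did not follow this: its mean log2 level was 8.22 in the SKOV3 Ctrl, 8.45 in sh-S1 and 8.06 in sh-S2, against 12.8 in the A2780s Ctrl. KRT7 was well above background on every array of the SKOV3 Ctrl, sh-S1 and sh-S2, but not of either A2780s RNA. EPCAM was so in both A2780s RNAs, but not in the SKOV3 Ctrl, sh-S1 or sh-S2. The endothelial genes VWF and CDH5 had the same pattern as EPCAM. In Cy5, 43.7 to 63.6% of spots were well above background on the SKOV3 arrays, against 74.3 and 88% on the A2780s arrays. The EPCAM pattern thus cannot be told apart from the dim Cy5 channel of the SKOV3 slide. Values thus stood on both sides, and it is in doubt whether both RNAs labelled sh come from SKOV3 cells, which was not tested. The part that cell identity has in the SKOV3 results below was not tested either, and each result is given for both RNAs.

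Among the markers of other cell types, 5 of 6 fibroblast genes were tested in SKOV3 and 1, COL3A1, was called by limma. COL1A1 was at -0.14, DCN at 0.07, COL1A2 at 0.16 and PDGFRA at 0.50. The log2 of the summed level of the fibroblast list, to which the brightest gene adds most, was 10.46 to 10.89 in the SKOV3 Ctrl. It was 12.6 to 13.9 in both clones and 13.0 to 13.4 in the A2780s RNAs. LUM was well above background on all arrays of no RNA. Of the leukocyte markers, 5 of 6 were tested and 0 called, with log2 ratios between -0.24 and 0.06. Of the endothelial markers, 1 of 4 was tested and 0 called. By the same rule, 7.13% of all tested probes were called, so counts of 0 in lists this small are near that share. PTPRC was well above background on every array of the A2780s Ctrl only, and PECAM1 of no RNA. CD14, ITGAM and CD79A, markers of leukocytes, were well above background on every array of all 5 RNAs, so passing this filter does not by itself mark a chemokine as expressed.

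CXC chemokines are small secreted proteins that attract leukocytes through receptors coupled to G proteins. CXCL1, CXCL2, CXCL3, CXCL5, CXCL6 and CXCL8 carry an ELR motif (glutamate, leucine, arginine) before their first cysteines, act through CXCR2 and in part CXCR1, draw neutrophils and promote the growth of blood vessels. Their genes lie together on chromosome 4 and are classical targets of NF-κB. CXCL12 is the ligand of CXCR4, a pair that guides cell migration and is known for its role in the spread of ovarian cancer within the peritoneum, where CXCL12 is made by the mesothelium. CXCL14 is a chemokine of epithelia, and CXCL16 is made as a membrane protein that binds CXCR6 and is shed by proteases.

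The promoters of the ELR+ chemokines are shown because the members called in SKOV3 all come from this group. RefSeq promoters of GRCh38.p14 were matched by symbol for 9 of the 10 members, and the 150 bases before the transcription start are printed 5′ to 3′ on the gene's own strand. The windows are chr4:73869243-73869392 (plus strand) for CXCL1, chr4:74099196-74099345 (minus) for CXCL2, chr4:74038690-74038839 (minus) for CXCL3, chr4:73998678-73998827 (minus) for CXCL5, chr4:73836528-73836677 (plus) for CXCL6 and chr4:73740419-73740568 (plus) for CXCL8. Capitals mark GGAATTTCC, letters of the kind that NF-κB binds.
CXCL1: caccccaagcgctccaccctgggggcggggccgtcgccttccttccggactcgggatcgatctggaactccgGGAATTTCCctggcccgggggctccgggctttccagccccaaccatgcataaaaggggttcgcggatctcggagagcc
CXCL2: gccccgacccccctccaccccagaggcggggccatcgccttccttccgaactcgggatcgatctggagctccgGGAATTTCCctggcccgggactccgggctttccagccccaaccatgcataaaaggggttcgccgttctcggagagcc
CXCL3: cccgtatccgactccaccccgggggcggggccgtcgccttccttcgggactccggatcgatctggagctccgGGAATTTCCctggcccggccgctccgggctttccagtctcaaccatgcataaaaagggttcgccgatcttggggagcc
CXCL5: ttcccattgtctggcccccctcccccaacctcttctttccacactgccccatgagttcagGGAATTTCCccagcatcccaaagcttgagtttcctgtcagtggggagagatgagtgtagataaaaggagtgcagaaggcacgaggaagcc
CXCL6: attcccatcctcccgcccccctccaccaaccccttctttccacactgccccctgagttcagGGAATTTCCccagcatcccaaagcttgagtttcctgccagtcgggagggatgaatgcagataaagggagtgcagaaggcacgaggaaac
CXCL8: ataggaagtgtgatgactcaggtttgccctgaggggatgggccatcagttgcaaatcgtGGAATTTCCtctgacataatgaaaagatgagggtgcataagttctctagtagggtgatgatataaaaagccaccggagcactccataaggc

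GGAATTTCC, searched on both strands over the 250 bases before to the 50 bases after the start, stood in all 6 ELR+ promoters and in none of the promoters of CXCL12, CXCL14 and CXCR4. Over all 35116 promoters of the table it stood in 162, or 0.461%. It began 77 or 78 bases before the start in CXCL1, CXCL2 and CXCL3 and 89 to 91 bases before it in CXCL5, CXCL6 and CXCL8. TGACTCA, the letters bound by AP-1, stood in CXCL8 and CXCL14 and in 4.95% of all promoters. The windows resemble each other in groups, with an unbroken shared run of 45 bases between CXCL5 and CXCL6 and of 42 bases between CXCL1 and CXCL2.

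In SKOV3 the ELR+ chemokines CXCL1, CXCL2 and CXCL8 fell in both RNAs labelled sh, CXCL1 by 67.3-fold. Of 15 member probes, 9 were tested, which required a signal well above background in the Ctrl on 4 of 4 arrays, or in 1 clone on its whole pair of arrays. Of these, 4 probes of 3 genes were called lower and 0 higher by limma. A call needed a Benjamini-Hochberg adjusted p no greater than 0.05 and a change of 2-fold or more. The CXCL8 probe among them passed the filter through the Ctrl alone, which favours a lower ratio, so its call is not counted as support. Over all 24955 tested probes, 7.13% were called, 4.16% lower and 2.97% higher. The median log2 ratio of the tested member probes was -0.38 and that of all tested probes 0.00. CXCL3, CXCL5, CXCL16 and CXCR4 were tested and not called, and CXCL6, CXCL12 and CXCL14 did not pass the filter. In RNA of whole cultures, fewer cells that make a chemokine and less RNA per cell cannot be told apart.

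**Figure D1:**
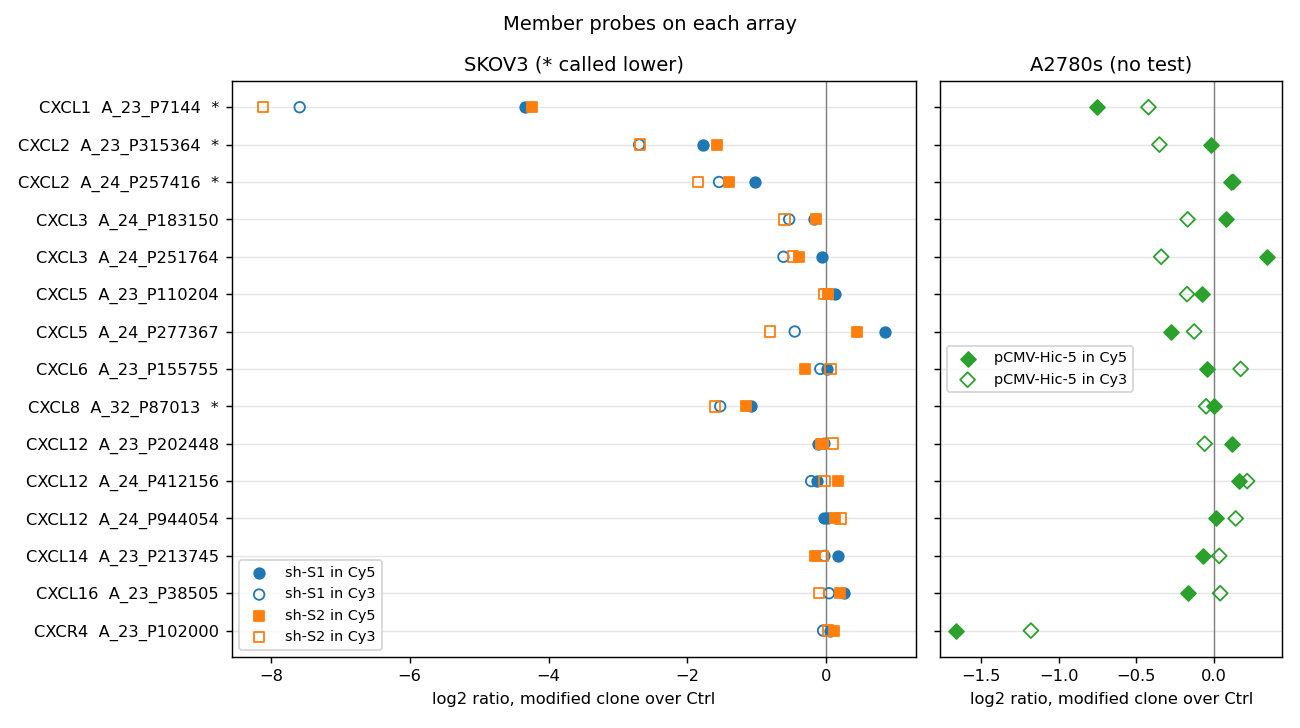
Log2 ratio of the modified clone over Ctrl (horizontal axis) for each of the 15 member probes (rows), on the 4 SKOV3 arrays (left; circles sh-S1, squares sh-S2) and the 2 A2780s arrays (right), filled where the clone was in Cy5 and open where it was in Cy3. In SKOV3 the 4 called probes, marked with an asterisk, lie left of 0 on every array, and CXCL1 lies between -8.12 and -4.24; in A2780s the CXCR4 probe lies furthest from 0.

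CXCL1, a neutrophil attractant that acts through CXCR2, has 1 probe (A_23_P7144, hg19 chr4:74736850-74736909, from base 999 of its transcript). Its log2 ratio was -4.34 with sh-S1 in Cy5, -7.59 with sh-S1 in Cy3, -4.24 with sh-S2 in Cy5 and -8.12 with sh-S2 in Cy3. Every array was thus far below 0, the arrays with the clone in Cy3 more so. The mean was -6.07 ± 0.15 (SD, n = 2 clones; limma standard error 0.10, adjusted p = 2.7e-06), the lowest of all 24955 probes. Before normalization, the mean Cy3 signal of the Ctrl spot was 67598 and 49799, and that of the clones 592 and 751, over local backgrounds of 36 to 50. In Cy5 the Ctrl spot read 8173 and 14355 and the clones 95.8 and 100.4. The CXCL1 spot was well above background in every SKOV3 RNA and was not saturated.

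CXCL2, a close relative of CXCL1 with the same receptor, has 2 probes. A_23_P315364 (chr4:74962985-74963044) gave -1.78 and -2.70 for sh-S1 and -1.58 and -2.69 for sh-S2, with the clone in Cy5 and in Cy3. Its mean was -2.18 ± 0.07 (SD, n = 2 clones; limma, adjusted p = 1.521e-05), or 4.54-fold lower. A_24_P257416 (chr4:74964342-74964401) gave -1.02 and -1.54 for sh-S1 and -1.40 and -1.85 for sh-S2, with a mean of -1.45 ± 0.24 (SD, n = 2 clones; limma, adjusted p = 0.0001813). The probes agreed in direction on all 4 arrays, and the mean of both was called as well (-1.82). A_24_P257416 shares a run of 17 bases with a CXCL3 probe, the longest run shared by member probes of different genes.

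CXCL8, a ligand of CXCR1 and CXCR2, has 1 probe (A_32_P87013, chr4:74609265-74609324). It gave -1.08 and -1.53 for sh-S1 and -1.15 and -1.60 for sh-S2, below 0 on all 4 arrays. The mean was -1.34 ± 0.05 (SD, n = 2 clones; limma, adjusted p = 0.0001114). The Ctrl was well above background on all 4 arrays, the clones only on the 2 arrays where they were in Cy3. In Cy5 the clone spots read 49.6 and 45.2 over local backgrounds of 43 and 41. The probe thus passed the filter through the Ctrl alone, which favours a lower ratio, and its call is given as a description. With the clones in Cy5 the size of the ratio, and so the SD of the means, depends on a clone signal near background. The size of the fall differed between processings. The mean was -2.22 with median centring of the ratios and -4.50 on the processed signals of the scanner software, and the call held in both (limma).

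CXCL3, the third member of the CXCL1 group, was lower by less than 2-fold. The probe A_24_P251764 gave -0.06 and -0.62 for sh-S1 and -0.39 and -0.48 for sh-S2, with a mean of -0.38 ± 0.07 (SD, n = 2 clones; limma, adjusted p = 0.02154). By adjusted p alone, 16.2% of all tested probes were lower. On the processed signals of the scanner software the mean was -1.11 and was called (limma, adjusted p = 0.00642). The other CXCL3 probe, A_24_P183150, had a mean of -0.36 and was not tested, since the Ctrl was well above background on 3 of 4 arrays and the clones on 1 of 4.

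CXCL5 and CXCL6, neutrophil attractants that share much of their promoter, were not called. The CXCL5 probe A_23_P110204 had a mean of 0.05 ± 0.07 (SD, n = 2 clones; limma, adjusted p = 0.742). The brighter CXCL5 probe A_24_P277367 gave 0.85 and 0.45 with the clones in Cy5 but -0.45 and -0.81 with the clones in Cy3, so its ratio followed the dye and not the clone, and its mean was 0.01 (limma, adjusted p = 0.967). CXCL6 was well above background in the Ctrl on 2 of 4 arrays and in the clones on none, with a mean of -0.08, and was not tested.

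No ligand outside the ELR+ group was called in SKOV3. CXCL16 had log2 ratios of 0.25 and 0.04 for sh-S1 and 0.21 and -0.11 for sh-S2, with a mean of 0.10 (limma, adjusted p = 0.509). The 3 CXCL12 probes had means of -0.03, -0.05 and 0.08 and were not tested, and A_24_P412156 was not well above background in any RNA of either line. CXCL14 had a mean of -0.02 and was not tested.

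CXCR4, the receptor of CXCL12, is read by 1 probe on 10 spots of each array (A_23_P102000, chr2:136871953-136872012). In SKOV3 it gave 0.05 and -0.04 for sh-S1 and 0.11 and 0.02 for sh-S2, a mean of 0.04 ± 0.05 (SD, n = 2 clones; limma standard error 0.09, adjusted p = 0.830). The ratios lay on both sides of 0.

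In A2780s CXCR4 was the only member past the fold rule used there. CXCR4 gave a log2 ratio of -1.66 with pCMV-Hic-5 in Cy5 and of -1.18 with it in Cy3, a mean of -1.42 or 2.68-fold lower in the RNA labelled pCMV-Hic-5. The SD over its repeated spots was 0.10 on the first array (8 spots) and 0.11 on the second (10 spots), which is technical spread within an array. CXCR4 was well above background in both A2780s RNAs on both arrays. With 1 pair of RNAs there is no replicate check and no p-value, and a probe was counted when its mean reached 1.5-fold with both arrays in one direction. Of 8 member probes that passed the filter, 1 was past this rule and lower and 0 were higher. Over all 30530 probes that passed, 4.58% were past the rule, 1.32% lower and 3.26% higher. The median log2 ratio was -0.09 over the 8 member probes and -0.01 over all.

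CXCL1 was near the limit of detection in A2780s. Its ratio was -0.75 and -0.42, a mean of -0.59. The Ctrl was well above background on 1 of 2 arrays and pCMV-Hic-5 on none, so the probe did not pass the filter. No bound on the fold is given, since the Ctrl was not detected on both arrays. On the processed signals of the scanner software the ratios were -2.14 and -1.27. CXCL8 and CXCL14 were not well above background in either A2780s RNA on any array. The other member probes had mean ratios between -0.20 and 0.19.

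**Figure D2:**
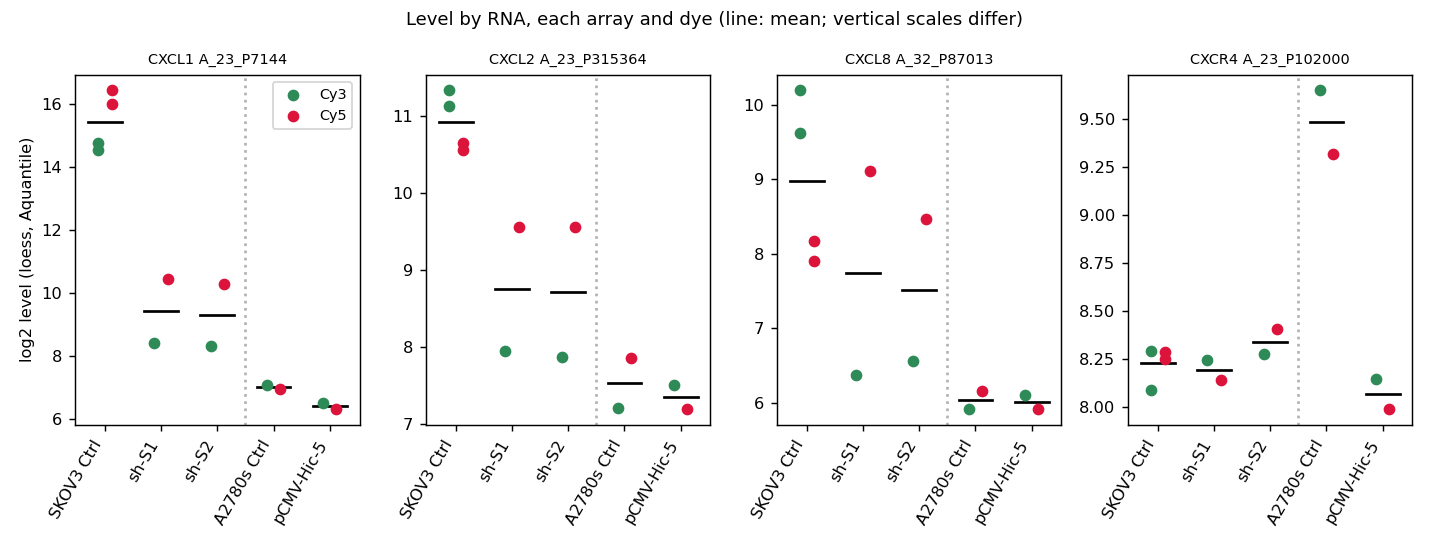
Log2 level (vertical axis, loess within arrays and Aquantile between them; the scale differs between panels) of 4 member probes in the 5 RNAs, with a point per array coloured by dye and a line at the mean. CXCL1 is highest in the SKOV3 Ctrl (14.5 to 16.4), and CXCR4 is highest in the A2780s Ctrl (9.32 to 9.65).

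CXCL1 had its highest level in the SKOV3 Ctrl. The CXCL1 level was 14.5 to 16.4 in the SKOV3 Ctrl, 8.42 to 10.44 in sh-S1, 8.33 to 10.3 in sh-S2, 6.94 to 7.07 in the A2780s Ctrl and 6.32 to 6.52 in pCMV-Hic-5. The levels of sh-S1 and sh-S2 overlapped and lay below those of the SKOV3 Ctrl and above those of both A2780s RNAs. In A2780s the Ctrl spot rose well above background on only 1 array of 2 and the pCMV-Hic-5 spot on none, so no order is read between these RNAs. The measured means of the SKOV3 Ctrl and the A2780s Ctrl differed by 8.44 on the log2 scale, and by 7.16 without normalization between arrays, with the A2780s value at the edge of detection. This compares slides as well as lines.

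CXCL2 (A_23_P315364) and CXCL8 were also highest in the SKOV3 Ctrl. For CXCL2 the mean log2 level was 10.9 in the SKOV3 Ctrl, 8.76 in sh-S1, 8.72 in sh-S2, 7.54 in the A2780s Ctrl and 7.35 in pCMV-Hic-5. For CXCL8 it was 8.97 in the SKOV3 Ctrl, 7.74 in sh-S1 and 7.52 in sh-S2, and neither A2780s RNA was well above background on any array. Over arrays, the CXCL8 levels of the SKOV3 Ctrl (7.90 to 10.2) and of the clones (6.37 to 9.11) overlapped, while within each array the clone was lower. The highest value of each clone, 9.11 in sh-S1 and 8.47 in sh-S2, came from a Cy5 spot not well above background. The overlap and the clone means of CXCL8 rest in part on these spots. Without normalization between arrays the mean of the clones was -0.20 from the A2780s Ctrl for CXCL2, against 1.20 with it, so that part of the order depends on the scaling.

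CXCR4 had its highest level in the A2780s Ctrl, at 9.32 to 9.65. It was 8.09 to 8.29 in the SKOV3 Ctrl, 8.14 to 8.24 in sh-S1, 8.27 to 8.40 in sh-S2 and 7.99 to 8.14 in pCMV-Hic-5, and neighbours in the order of these 4 RNAs overlapped over arrays. The difference of the SKOV3 Ctrl from the A2780s Ctrl was -1.26 on the log2 scale and -2.97 without normalization between arrays. CXCL3 (A_24_P251764) and CXCL5 changed sign between these scalings and have no settled order between the lines.

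The ELR+ genes were also read along the chromosome. The probes from CXCL8 to CXCL2 span 355.1 kb of chromosome 4 in hg19 and include 16 probes, 9 of them of members. The called genes are not neighbours: CXCL8 stands at 0 kb, CXCL1 at 127.6 kb and CXCL2 at 353.7 kb, with CXCL6, CXCL5 and CXCL3 between them. Of the 7 probes of other genes in the window, which include the platelet chemokines PF4, PF4V1 and PPBP, 2 were tested and 0 called by limma. An Ensembl transcript at 195.1 kb, ENST00000505935, was higher by 0.93 but below 2-fold (limma, adjusted p = 0.000943).

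**Figure D3:**
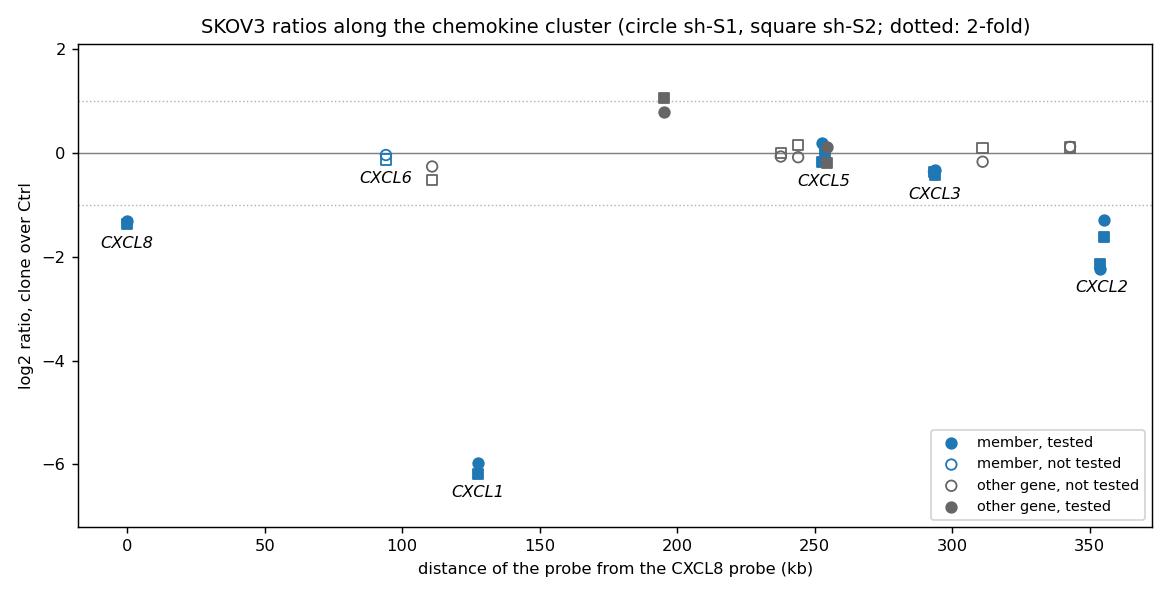
Mean log2 ratio of each SKOV3 clone over Ctrl (vertical axis; circles sh-S1, squares sh-S2) against the distance of the probe from the CXCL8 probe in kb (horizontal axis), with members in blue, other genes in grey and untested probes open. CXCL8, CXCL1 and CXCL2 lie below the dotted 2-fold line at 0, 127.6 and 353.7 to 355.1 kb, and the probes between them lie above it.

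No other chemokine tested was called in SKOV3, and 1 in A2780s was past the fold rule. Among the other CXC ligands, 2 of 8 genes were tested in SKOV3 and 0 called by limma. In A2780s 5 passed the filter and 1, the CXCR3 ligand CXCL11, was past the 1.5-fold rule and lower (-0.61, from -0.93 and -0.29). Of the other CXC receptors, which include CXCR1 and CXCR2, 3 of 7 were tested in SKOV3 and 5 passed in A2780s, with 0 called or past the rule. CC and CX3C chemokines gave 9 tested of 18 in SKOV3 and 9 passed in A2780s. Again 0 were called or past the rule, with medians of 0.06 and -0.03. The share called over all tested probes in SKOV3 was 7.13%. In A2780s the share past the rule was 4.58%, with 1.32% lower. Counts of 0 in sets this small are near these shares and are no result about the other chemokines. CXCL4 and CCL4 had no probe under these names but count among the 8 and the 18. The CXCL4 probe named PF4 was left out of the list and was not tested in SKOV3. CXCR1 and CXCR2 did not pass the filter in SKOV3, and ACKR3, the other receptor of CXCL12, was at -0.13 there (limma, adjusted p = 0.36).

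Genes of NF-κB signalling and inflammatory inputs, a list that also holds NF-κB targets such as NFKBIA, were lower in SKOV3 in part. Of 25 genes 24 were tested, 5 were called lower and 0 higher by limma, with a median of -0.27. Over all 24955 tested probes, 4.16% were called lower and 2.97% higher. CEBPD, a transcription factor of the acute phase response, was at -1.82 (limma, adjusted p = 4.63e-05). BCL3, a nuclear partner of NF-κB subunits, was at -1.46, NFKBIA, the inhibitor IκBα and itself an NF-κB target, at -1.31, and CEBPB, a relative of CEBPD, at -1.13. The NF-κB subunit RELB was at -1.12, and both clones were below 0 for each of these 5. RELA, the subunit that drives most canonical targets, was at -0.24 (limma, adjusted p = 0.0959), and the cytokine IL6 at -0.96, short of 2-fold.

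In A2780s 24 genes of this list passed the filter, 2 were past the 1.5-fold rule and higher, and 0 lower. CEBPB had ratios of 1.70 and 2.34, a mean of 2.02, and NFKBIB, an inhibitor of NF-κB, 1.18 and 0.26, a mean of 0.72. Over all 30530 probes that passed, 1.32% were past the rule and lower and 3.26% higher. The median of the list was 0.01. CEBPB thus stood below 0 in the SKOV3 comparison (-1.69 in sh-S1 and -0.58 in sh-S2) and above 0 in the A2780s comparison, and the difference between the lines was not tested.

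**Figure D4:**
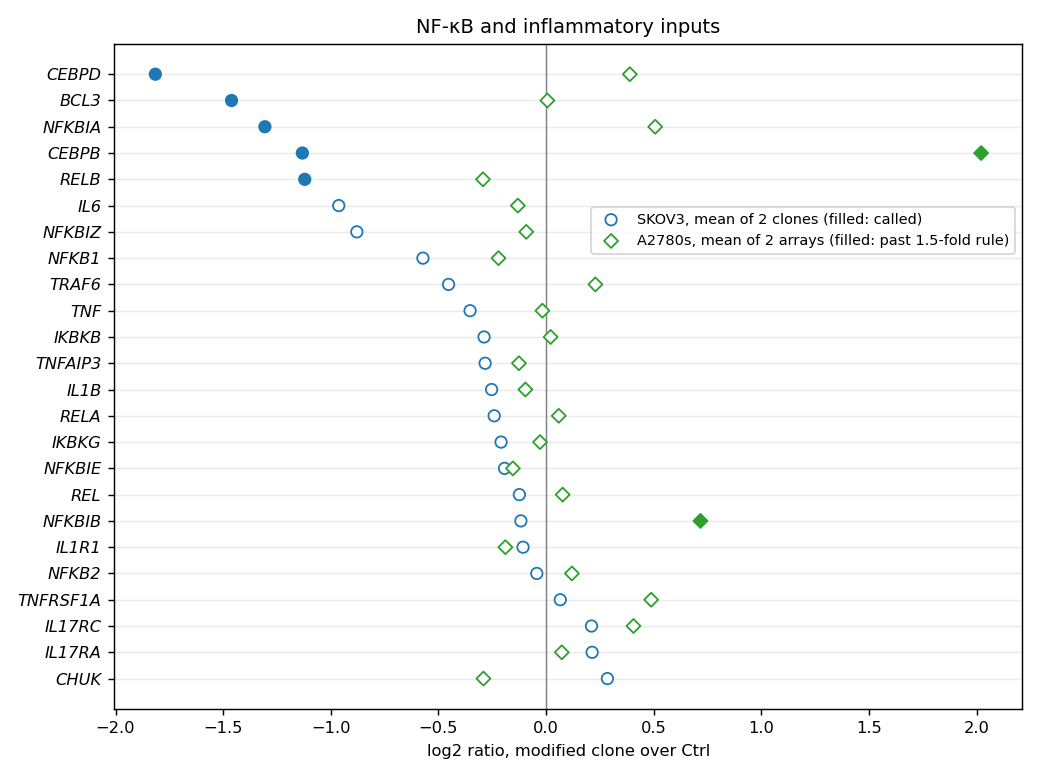
Log2 ratio of the modified clone over Ctrl (horizontal axis) for the 24 tested genes of NF-κB and inflammatory inputs (rows), with SKOV3 means of 2 clones as blue circles, filled where called by limma, and A2780s means of 2 arrays as green diamonds, filled where past the 1.5-fold rule. The 5 filled circles lie between -1.82 and -1.12, and CEBPB is the rightmost diamond at 2.02.

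The motif printed above was also set beside the ratios of other genes. Of the 153 genes with GGAATTTCC in their promoter, 59 were tested in SKOV3, of which 10 were called lower and 5 higher by limma, with a median of -0.12. Over all 10620 tested genes with a promoter in the table, 5.25% were called lower and 3.72% higher, against 16.9% and 8.47% of the genes with the motif. The 16.9% counts the members CXCL1, CXCL2 and CXCL8, of which CXCL8 passed the filter through the Ctrl alone. The 54 of these 59 genes that are not members included 7 called lower and 5 called higher. NFKBIA was among those lower, and DUSP6 (3.49) and RAB34 (3.67) were among those higher. The motif was chosen after the member values were known, and its letters also stand in the promoters of CXCL3 and CXCL5, which were tested and not called.

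Enzymes that cut or shed chemokines, and proteins that act below the receptors, completed the pathway. Of 7 enzymes 4 were tested in SKOV3 and 1 was called, the collagenase MMP1, lower at -2.72 (-2.66 and -2.78; limma, adjusted p = 7.18e-06). ADAM10, which sheds CXCL16, was at -0.30, and ADAM17 at 0.29, neither called. In A2780s 0 of the 5 that passed were past the rule. Of 14 signalling genes, which count GRK2 though no probe bore this name, 12 were tested in SKOV3, with 2 called lower and 1 higher. Over all tested probes, 4.16% were called lower and 2.97% higher. HIF1A, the hypoxia factor that is known to raise CXCR4, was lower at -2.09 and the G protein subunit GNAI3 at -1.04, while RGS2, which shortens G protein signals, was higher at 2.33 (1.42 in sh-S1 and 3.24 in sh-S2; limma, adjusted p = 0.00366). In A2780s RGS2 was past the rule and lower (-0.85) and RGS16 past the rule and higher (1.01, from 0.72 and 1.30), of 12 that passed. Over all probes that passed there, 1.32% were past the rule and lower and 3.26% higher.

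The genes whose ratios over the 6 arrays were nearest to those of CXCL1, by Euclidean distance among 18146 probes with a current gene name that passed the filter in both lines, were S100A6 (distance 1.40), S100A2 (1.77), GPX1 (2.45), ANXA1 (3.25) and SPANXA1 (3.40). S100A6, a calcium-binding protein, had -4.29 and -7.00 for sh-S1 and -4.52 and -6.91 for sh-S2. As for CXCL1, the ratios with the clone in Cy3 were further from 0. The genes were chosen by their distance to these same ratios, so the likeness is a description. The CXCL1 probe itself did not pass the filter in A2780s, though its A2780s ratios entered the distance. For CXCR4 the nearest included the protocadherin PCDH17 (0.48), MIR210HG (0.73), PCGF3 (0.82) and TIMM8A (0.88). PCDH17 had -1.38 and -1.09 in A2780s and ratios between -0.22 and 0.31 in SKOV3.

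The calls of CXCL1, both CXCL2 probes and CXCL8 held under each alternative that gave a test, while the sizes of the falls differed. On the processed signals of the scanner software CXCL2 (A_23_P315364) was at -3.39 and CXCL8 at -4.50. With the clones in Cy5 only CXCL1 was at -4.29 and CXCL8 at -1.12, the latter with clone spots near background.

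**Figure D5:**
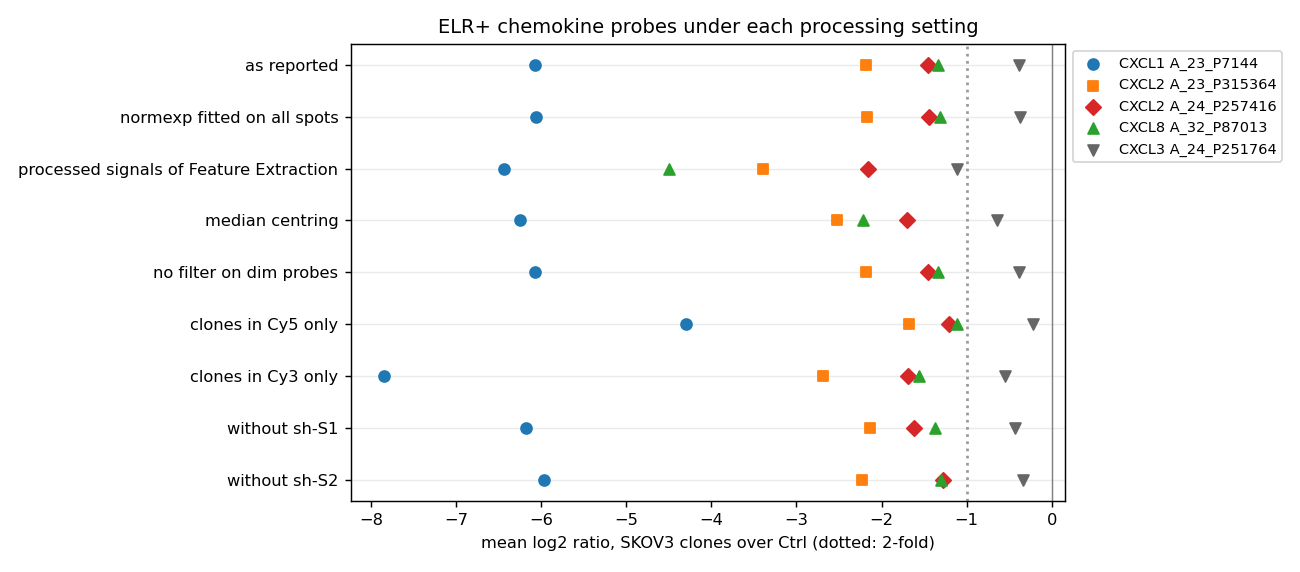
Mean log2 ratio of the SKOV3 clones over Ctrl (horizontal axis) of 5 ELR+ chemokine probes under the processing as reported and 8 alternatives (rows). CXCL1, both CXCL2 probes and CXCL8 stay left of the dotted 2-fold line in every row, and the CXCL3 probe passes it on the processed signals of the scanner software at -1.11.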

How the data were processed

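Arrays were Agilent whole human genome designs read with Feature Extraction (8.5.1.1 per the submitters' notes, 10.7.3.1 per the file headers), with probe positions in hg19. The authors deposited spot intensities with local backgrounds, not normalized, processed intensities, and log10 ratios of Cy5 over Cy3. The deposited series values are these ratios, not turned on dye-swapped arrays (column medians 0 to 0.001), and were not used further. Background was corrected with normexp (offset 50) in limma 3.58.1 under R 4.3.3, fitted without spots that carried a background outlier flag. Spots with a local background over 1000 or an outlier flag were left out. Ratios were normalized by loess, averaged over spots of a probe and turned to modified clone over Ctrl. The dyes were taken from the labels. SKOV3 clone means were tested against 0 with lmFit and eBayes over all probes that passed the filter, after a test on simulated data. Levels were taken per channel after Aquantile. The labels do not say whether the RNAs came from separate cultures. The members are all probes of the 10 genes. For the gene lists, each gene was read by the brightest of its probes that passed the filter. The gene lists gave by rule up to 4 called genes per direction in SKOV3 and up to 3 in A2780s, and the nearest 5 genes to CXCL1 and CXCR4, of which 1 is not reported here. Members and lists were chosen with earlier results of these data known. Array number and signal over background limit the precision.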

Additional observations from a re-analysis of the deposited data

How the results depend on the processing

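The calls of CXCL1, both CXCL2 probes and CXCL8 in SKOV3 held under every alternative run (normexp fitted on all spots, processed signals of the scanner software, median centring, no filter on dim probes, either dye orientation alone), and each stayed at least 2-fold lower in either clone alone, where there is no test, with means from -7.85 to -4.29, -3.39 to -1.68, -2.16 to -1.21 and -4.50 to -1.12. The number of called member probes was 4, or 5 on the processed signals. CXCL5 A_24_P277367 was at -0.63 with clones in Cy3 only and at 0.65 with clones in Cy5 only. CXCR4 in A2780s stayed between -1.66 and -1.18, and without the filter CXCL1 was also past the rule, which made 2 members. Over all probes in SKOV3, 2355 were lower and 1971 higher on the processed signals, 1579 were lower with median centring and 1216 higher with clones in Cy3 only; with 1 clone alone, 970 to 1154 were lower and 774 to 834 higher, against 1037 and 742. In A2780s, against 403 lower and 994 higher, 700 were lower on the processed signals, 1519 lower and 1797 higher with the clone in Cy5 only, 214 lower with it in Cy3 only, and 123 lower and 495 higher when each array had to reach 1.5-fold. The causes were not tested. No paired analysis was possible because both SKOV3 clones were set against the same Ctrl RNA and the A2780s group holds 1 replicate. The dim Cy5 channel limits what could be measured of low chemokines in SKOV3. For CXCL8, the call with the clones in Cy5 only rests on clone spots near background.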
